A study of Mus musculus with 18 samples.

Results

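The genes described here are Trp53, which encodes the tumour suppressor p53, and 9 genes that restrain p53 or are switched on by it. They are picked out by gene symbol: Trp53, its inhibitors Mdm2 and Mdm4, and the targets Cdkn1a, Ccng1, Trp53inp1, Sesn2, Phlda3, Zmat3 and Aen. Of these 10 genes, 9 were measured, by 22 probe sets among 34945 probe sets for 18193 genes in the series. No probe set carries Trp53 as its single symbol in the annotation used, so Trp53 itself (chr11:69580348-69591873) was not analysed here. Gene locations are those of RefSeq on GRCm38.p6. A probe set is a group of short probes on the array that together measure 1 transcript, and its value is a fluorescence intensity on a linear scale.

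RNA came from the thymus or the tumour of 18 mice, 1 array per mouse, in 3 groups. The 8 mice of the lymphoma group were CD4Cre-Ctnnbex3 animals with tumours, and the 5 mice called before transformation had the same genotype without a tumour. The 5 control mice are LckCre animals in the design text and wild type in the sample labels, and which of these is right was not settled. In CD4Cre-Ctnnbex3 mice, Cre driven by Cd4 regulatory sequences removes an exon of the beta-catenin gene Ctnnb1 in developing T cells, and the protein then escapes degradation. The mice of each group are independent animals per the design text, and ages and strain are not given in the labels. Unsorted thymocytes or tumour masses were used, so other cells of the organ are in the RNA, and fewer cells of a type and less RNA per cell cannot be told apart.

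The p53 protein is kept low in resting cells because Mdm2, a ubiquitin ligase, marks it for destruction and because Mdm4, a relative of Mdm2, covers the part of p53 that activates genes. After DNA damage or oncogene activity p53 is released, binds DNA and switches on genes that stop the cell cycle, repair DNA or kill the cell. Mdm2 is one of these genes, which closes a feedback loop. Thymocytes are known for their strong p53 response, and mice without p53 develop lymphomas of the thymus.

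The p53 protein binds pairs of a short element called the p53 half-site. The windows below run from 250 bases before to 50 bases after an annotated start (RefSeq, GRCm38.p6), and are shown because 4 of the measured genes carry such an element there. For Cdkn1a the whole window of its earlier annotated start, chr17:29090729-29091028 on the plus strand, is given. The capitals mark a CATGNNNNNNCATG pair with 3 bases on either side, which begins 51 bases before that start. The window of the later Cdkn1a start, chr17:29093519-29093818, held neither pattern. For the other genes a stretch of 30 bases is given, with the half-site in capitals. It begins 186 bases before the start of Mdm2 (window chr10:117710709-117711008, minus strand), 185 before that of Ccng1 (chr11:40755237-40755536, minus strand) and 121 before the later of 2 annotated starts of Aen (chr7:78895808-78896107, plus strand), so that it lies inside the gene, just after its first start.
Cdkn1a: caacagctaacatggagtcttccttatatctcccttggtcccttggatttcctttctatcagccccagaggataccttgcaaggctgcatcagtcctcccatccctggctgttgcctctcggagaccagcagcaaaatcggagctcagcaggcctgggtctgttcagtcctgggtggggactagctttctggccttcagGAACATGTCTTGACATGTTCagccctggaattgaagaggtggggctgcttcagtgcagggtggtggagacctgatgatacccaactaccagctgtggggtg
Mdm2: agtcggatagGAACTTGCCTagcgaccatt
Ccng1: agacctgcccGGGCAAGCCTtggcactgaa
Aen: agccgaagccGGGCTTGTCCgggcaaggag
The half-site, which reads the same on both strands, was found in 8.36% of 32851 promoter windows, and CATGNNNNNNCATG, which is also its own reverse complement, in 0.712%. The 2 patterns overlap in Cdkn1a. Of 8 member genes with a window in the table, 5 held a half-site, Trp53 among them, and the windows of Mdm4, Sesn2 and Phlda3 held none of either pattern. A match describes letters only, and no binding was measured.

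The median intensity of the 18 arrays lay between 125 and 166, and the number of mice limits the precision of every comparison. Arrays of 1 group correlated at r of 0.850 to 0.964 in lymphomas, 0.906 to 0.973 before transformation and 0.948 to 0.983 in controls. Mice numbered 1 and 2 deviated from their group means together across groups (mean correlation 0.211), and against those numbered 3 and up (mean -0.125), so some values are also given within a set of numbers. Xist and Eif2s3y signals were female in 6 lymphomas, mixed in lymphoma 4 and male in lymphoma 3. They were male in all 5 mice before transformation and in controls 3, 4 and 5, and female in controls 1 and 2. For mice before transformation against control, mice 1 and 2 alone thus set males against females. Mice 3 and up alone, and the run without controls 1 and 2, hold males only in that comparison. Among controls, sex and the set of numbers cannot be told apart. Sex was uneven between the groups, and its part in the differences was not tested. T-cell markers were present in every group, with a sum over 7 genes of 11273 to 18016 in lymphomas, 23586 to 31053 before transformation and 27874 to 32128 in controls. The sum over 7 myeloid markers was 4661 to 18093, 3006 to 5136 and 2796 to 4057 in the same groups, and that over 6 stromal markers 786 to 5188, 789 to 1494 and 697 to 857. Of the stromal markers, Pdgfrb was at or below the floor in 11 of 18 mice.

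In the lymphomas Cdkn1a, Zmat3, Phlda3, Aen, Ccng1 and Sesn2 were higher than in control thymocytes, though Aen 1451186_at and Sesn2 1451599_at were not called. Mdm2, Trp53inp1 and 1 of 4 Mdm4 probe sets were lower, and another Mdm4 probe set was higher. The share of lower calls lay near that of all probe sets. Differences are of log2 intensities and are called at a limma adjusted p under 0.05 over all 24364 probe sets tested. Of the 22 member probe sets 20 were bright enough to be tested. Cdkn1a 1421679_a_at was so through the lymphomas alone, and it is counted as higher and without overlap in both lymphoma comparisons. Mdm4 1453982_at also needed the lymphomas to be tested, since fewer than 5 other mice read above 109. It is counted as higher in both lymphoma comparisons. Against control, 11 of these 20 were called higher and 5 lower in lymphomas, against a background of 40.9% of all probe sets called, 16.9% higher and 23.9% lower. Against mice before transformation 8 were higher and 4 lower, where 36.2% of all probe sets were called, 16% higher and 20.2% lower. In mice before transformation 1 was higher and 0 lower against control, where 11.5% were called, 4.77% higher and 6.73% lower. By probe set, the member share was above the background in both lymphoma comparisons for higher calls, and near it for lower calls. By gene, 6 of 9 were higher and 3 lower against control, where 17.3% and 22.7% of all genes were. Against mice before transformation 4 of 9 were higher and 3 lower, where 16.1% and 18.5% were. Probe sets of 1 gene are not independent, and the members were chosen with earlier results of these data known. The shares are thus descriptive only. Before transformation 1 call of 20 lies near the background, and by gene it was 11.1% of the 9 members against 10.8% of all genes. The groups did not overlap in 6 higher and 3 lower member probe sets for lymphomas against control (20.4% of all probe sets, 7.81% higher and 12.6% lower) and in 2 higher and 4 lower against mice before transformation (16.7%, 6.72% higher and 9.96% lower). Comparisons that share a group share its mice, so they are not independent of each other. The median member difference was 0.58 for lymphomas against control, 0.40 for lymphomas against mice before transformation and 0.21 for mice before transformation against control, where the medians of all probe sets were -0.05, -0.04 and -0.02. Quantile normalization moved the medians of all probe sets to 0.06, 0.05 and 0.00, and no called member difference changed sign under any alternative run.

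In the lymphomas 5 of 7 T-cell markers were called lower than in control, 5 of 7 myeloid markers higher and 2 lower, 4 of 5 tested stromal markers higher, 4 of 6 granulocyte markers lower and 2 of 6 thymic epithelium markers lower. Their part in the member differences was not tested.

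**Figure D1:**
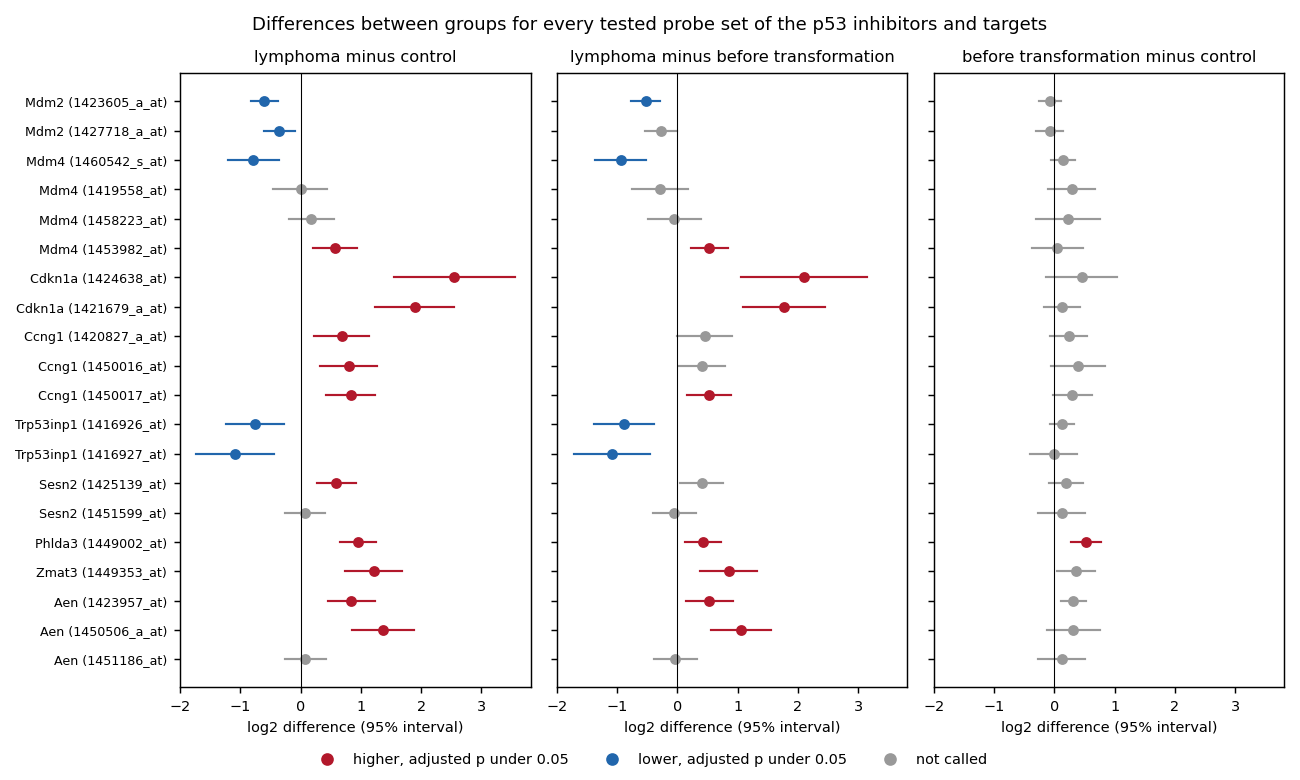
Log2 difference with its 95% interval for each of the 20 tested probe sets (rows) in the 3 comparisons (panels), coloured by limma adjusted p. Lymphoma minus control ranges from -1.09 for a Trp53inp1 probe set to 2.55 for a Cdkn1a probe set, and before transformation minus control has 1 called probe set, Phlda3.

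Mdm2 (chr10:117688875-117710758), the ubiquitin ligase of p53, fell in the lymphomas. Its probe set of highest mean, 1423605_a_at, read 868 at the lowest, 1248 at the median and 1333 at the highest in the 8 lymphomas, against 1808, 1844, 1617, 1890 and 1492 in mice before transformation and 1720, 1786, 1700, 1900 and 1939 in controls. All 8 lymphomas lay below all 10 other mice. The difference from mice before transformation was -0.53 ± 0.11 (SE; 1.44-fold lower, limma adjusted p = 0.00237) and that from control was -0.60 ± 0.10 (1.51-fold lower, limma adjusted p = 0.000403). Mdm2 kept this call without lymphoma 6, the lowest tumour, with a difference from control of -0.53. The second probe set, 1427718_a_at, read 483 to 803 in lymphomas, 692 to 949 before transformation and 728 to 944 in controls, so the groups overlap. It differed from control by -0.35 ± 0.12 (limma adjusted p = 0.0337), a call that was lost without lymphoma 4 (0.0592), without control 1 (0.0835), 2 (0.0902) or 4 (0.0605), and with quantile normalization (0.101) or centring on array medians (0.166), and not made in mice 1 and 2 alone (0.0991) or mice 3 and up alone (0.130). Its difference from mice before transformation was -0.27 ± 0.13 (limma adjusted p = 0.109). Another Mdm2 probe set, 1457929_at, was too dim to be tested, at 52.8 to 80.5 in lymphomas, 67.5 to 138 before transformation and 67.8 to 108 in controls.

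Mdm4 (chr1:132986105-133030587), the partner of Mdm2 that blocks p53 without destroying it, did not move the same way in all of its 4 probe sets. With 1460542_s_at the lymphomas had a lowest value of 471, a median of 1023 and a highest value of 1291, against 1844, 1830, 1717, 1985 and 1739 before transformation and 1541, 1473, 1765, 1966 and 1506 in controls. No lymphoma reached any of the other mice. This probe set differed by -0.94 ± 0.20 from mice before transformation (1.92-fold lower, limma adjusted p = 0.00195) and by -0.79 ± 0.20 from control (1.73-fold lower, limma adjusted p = 0.00555). The ending _s_at is the array maker's mark for probes shared by several transcripts. The dim probe set 1453982_at went the other way, with 108 to 165 in lymphomas against 77.2 to 112 before transformation and 66.2 to 116 in controls. Fewer than 5 of the other mice read above 109, so this probe set was admitted to the test only with the lymphomas. Its differences were 0.52 ± 0.14 from mice before transformation (limma adjusted p = 0.0110) and 0.57 ± 0.17 from control (limma adjusted p = 0.0152), and neither was called in mice 1 and 2 alone (0.240 and 0.171), nor the second in mice 3 and up alone (0.0603).

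The other 2 Mdm4 probe sets were not called in any comparison over all mice. For 1419558_at the lymphomas read 326, 330, 657, 652, 647, 423, 595 and 632 in order of mouse number, against 485 to 864 before transformation and 399 to 678 in controls. Lymphomas 1, 2 and 6 thus lay below the other 5. The difference from control was 0.00 ± 0.21 over all mice (limma adjusted p = 0.988), and -0.73 in mice 1 and 2 alone (limma adjusted p = 0.0123) and 0.27 in mice 3 and up alone (0.294). Against mice before transformation it was -0.29 ± 0.22 over all mice (limma adjusted p = 0.312) and -0.62 in mice 1 and 2 alone (0.0365). For Mdm4 1458223_at the lymphomas read 148 to 257, mice before transformation 138 to 290 and controls 132 to 253. The plot of Mdm2 and Mdm4 shows that the lower tumour level was seen in 1 of 4 Mdm4 probe sets.

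**Figure D2:**
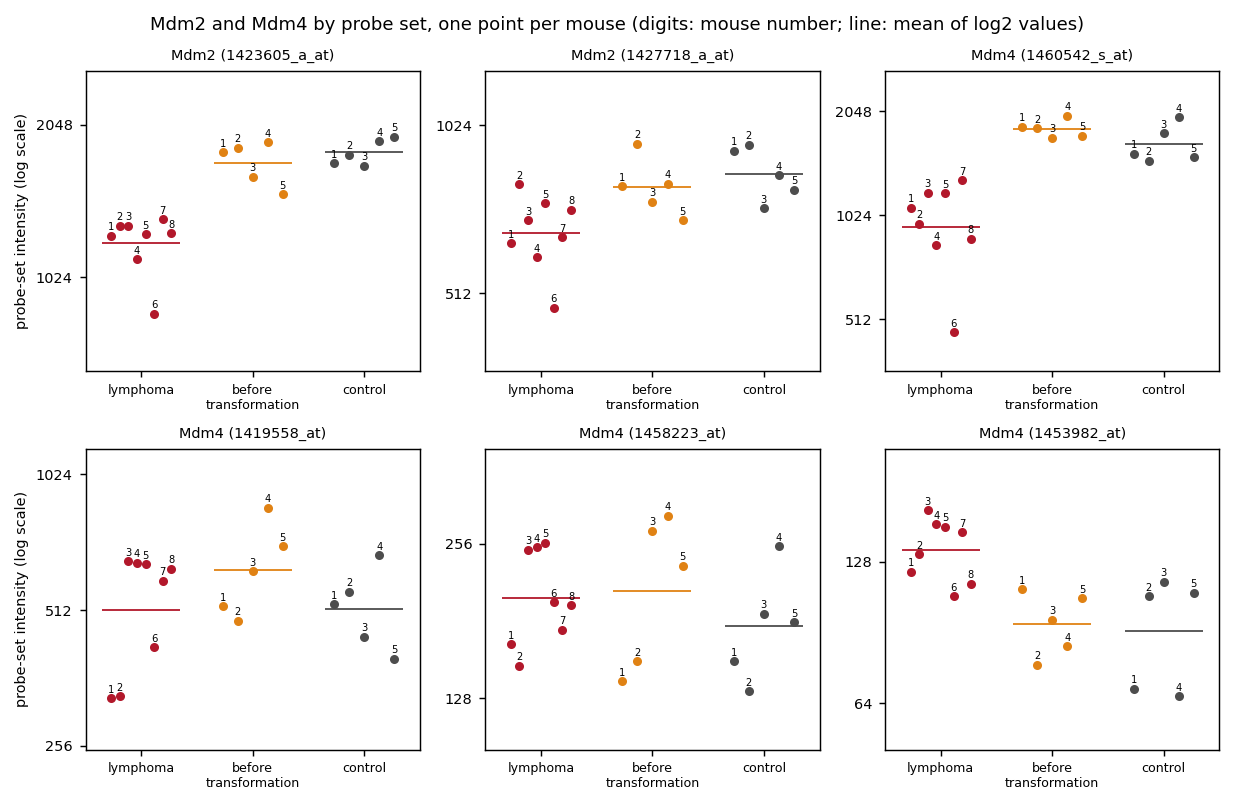
Intensity (log scale) of the tested Mdm2 and Mdm4 probe sets, 1 point per mouse with its number, in lymphomas, mice before transformation and controls, with a line at the mean of the log2 values. Lymphomas lie below all other mice for Mdm2 1423605_a_at and Mdm4 1460542_s_at, and the groups overlap in the other 4 panels.

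Cdkn1a (chr17:29090979-29100722), which encodes the cyclin-dependent kinase inhibitor p21 and halts the cell cycle, showed the largest difference of the measured members. With 1424638_at the lymphomas had a lowest value of 257, a median of 1251 and a highest value of 1483, against 228, 299, 155, 108 and 160 before transformation and 158, 188, 104, 105 and 116 in controls. The tumours fell into a high and a low range: lymphomas 1, 2, 5, 6 and 8 read 1185 to 1483, and lymphomas 3, 4 and 7 read 257 to 355. The 3 low tumours were above every control, but 2 of them lay below before transformation 2. Cdkn1a was higher in lymphomas by 2.10 ± 0.49 than before transformation (4.28-fold, limma adjusted p = 0.00401) and by 2.55 ± 0.47 than in control (5.85-fold, limma adjusted p = 0.000606). The standard deviation of its log2 intensity was 1.16 in the 8 lymphomas, against 0.56 before transformation and 0.38 in controls (n = 5 each).

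The second Cdkn1a probe set, 1421679_a_at, split the tumours in the same way. It read 130 at the lowest, 353 at the median and 553 at the highest in lymphomas, against 87.6, 103, 88.3, 65.0 and 77.2 before transformation and 82.2, 76.9, 74.4, 66.4 and 84.1 in controls. Lymphomas 3, 4 and 7 read 175, 165 and 130, and the other 5 read 334 to 553. All 8 tumours lay above all other mice here, by 1.77 ± 0.32 against mice before transformation (3.41-fold, limma adjusted p = 0.000654) and by 1.89 ± 0.31 against control (3.71-fold, limma adjusted p = 0.000227). To be tested, a probe set had to read above 109 on 5 or more arrays. This one passed through the lymphomas alone, since no other mouse read above 103. Its admission to the test thus rested on the group in which it was high. Both Cdkn1a probe sets were called in both lymphoma comparisons under all alternatives run, and within each set of mouse numbers the difference from control with 1424638_at was 3.05 (mice 1 and 2) and 2.51 (mice 3 and up).

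The summed markers of B cells, stroma and myeloid cells varied among the tumours. Lymphomas 3, 4 and 7, the low Cdkn1a tumours, had the highest summed B-cell markers, at 5258, 3209 and 2074, against 651 to 1643 in the other 5 tumours, 692 to 2681 before transformation and 1131 to 1457 in controls. None of the 6 tested B-cell markers was called in either lymphoma comparison. Lymphoma 1, with the highest Cdkn1a value of 1483, had the lowest stromal sum of the tumours (786) and the lowest myeloid sum (4661). Lymphoma 8, with 1442, had the highest of both (5188 and 18093). By Xist and Eif2s3y, lymphoma 3 was male, lymphoma 4 mixed and lymphoma 7 female, and the other 5 tumours were female. The part of sex, B cells, stroma and myeloid cells in the Cdkn1a values was not tested. The proliferation markers, a sum over 7 genes, lay at 11202 to 23072 in lymphomas, 15206 to 25968 before transformation and 19260 to 23425 in controls.

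**Figure D3:**
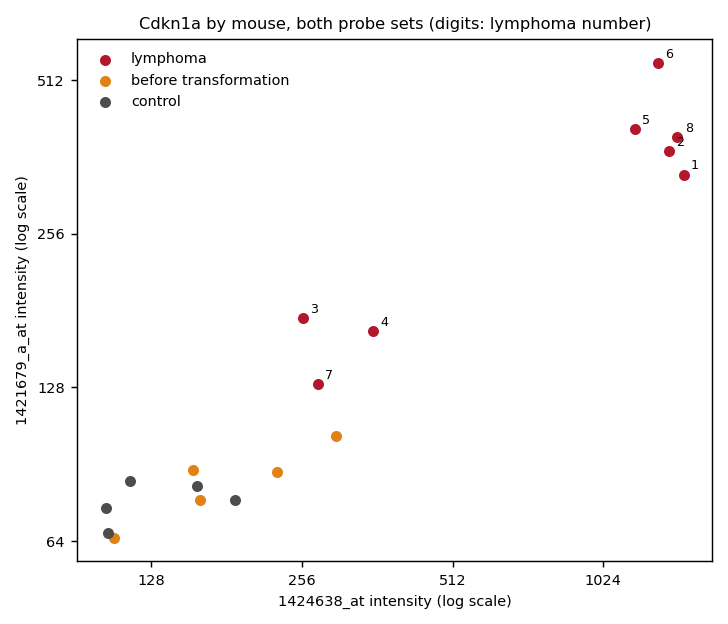
Intensities of the Cdkn1a probe sets 1424638_at (horizontal, log scale) and 1421679_a_at (vertical, log scale), 1 point per mouse, with lymphomas numbered. Lymphomas 1, 2, 5, 6 and 8 lie at the upper right, at 1185 or more on the horizontal axis, and lymphomas 3, 4 and 7 lie between them and the other mice.

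The 3 genes whose intensities followed Cdkn1a most closely over the 18 arrays, out of 14010 genes compared and with the other members left out, were Jcad (Pearson r = 0.937, Spearman rho = 0.866), Pde8a (0.928 and 0.915) and Pyurf (0.924 and 0.917). Jcad encodes a protein of endothelial cell junctions and Pde8a a phosphodiesterase that breaks down cyclic AMP. Jcad read 86.7 to 223 in lymphomas and at most 50.1, below the floor, in the other 10 mice. Jcad was thus bright enough to be tested through the lymphomas alone, and its correlation was computed with those 10 mice tied at the floor. Pde8a read 153 to 688 in lymphomas and at most 123 elsewhere, and Pyurf 164 to 322 and at most 161. These values describe likeness over arrays that share the difference between tumours and thymocytes.

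Zmat3 (chr3:32334792-32365665), a zinc finger protein that binds RNA, rose in the tumours. Its single probe set, 1449353_at, read 402 at the lowest, 585 at the median and 1143 at the highest in lymphomas, against 427, 286, 322, 334 and 342 before transformation and 317, 275, 275, 201 and 266 in controls. All lymphomas were above all controls, and 7 of 8 were above every mouse before transformation. The difference was 0.85 ± 0.22 from mice before transformation (1.80-fold, limma adjusted p = 0.00761) and 1.21 ± 0.22 from control (2.32-fold, limma adjusted p = 0.000540). In mice 1 and 2 alone Zmat3 differed by 1.05 and 1.29 and neither was called (limma adjusted p = 0.157 and 0.0820).

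Phlda3 (chr1:135766085-135769134), whose product competes with the kinase Akt for membrane lipids and so restrains Akt, was higher in lymphomas than in both other groups. Probe set 1449002_at read 398, 462 and 663 (lowest, median, highest) in lymphomas, against 416, 334, 315, 370 and 365 before transformation and 260, 297, 226, 239 and 233 in controls. All mice of both CD4Cre-Ctnnbex3 groups were above all controls, and 3 tumours lay just below before transformation 1. Lymphomas exceeded control by 0.95 ± 0.14 (1.93-fold, limma adjusted p = 0.000107). Their difference from mice before transformation was 0.43 ± 0.14 (1.34-fold, limma adjusted p = 0.0297), a call lost without before transformation 2 (0.0597), 3 (0.0761), 4 (0.0521) or 5 (0.0556), and Phlda3 was not called within either set of mouse numbers (0.258 and 0.0510).

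Aen (chr7:78895927-78911209), a nuclease that promotes apoptosis, rose in 2 of its 3 tested probe sets. With 1423957_at the lymphomas read 593, 690 and 1426 (lowest, median, highest), against 537, 530, 509, 577 and 491 before transformation and 477, 454, 386, 380 and 442 in controls. The 3 groups did not overlap, and lymphoma 1 stood at the top. The difference was 0.84 ± 0.18 from control (1.79-fold, limma adjusted p = 0.00209) and 0.53 ± 0.18 from mice before transformation (1.45-fold, limma adjusted p = 0.0333). That second call for Aen was lost without lymphoma 2 (0.0541) and without each mouse before transformation in turn (0.05 to 0.0755). With 1450506_a_at the lymphomas read 186, 281 and 592, against 162, 189, 124, 123 and 112 before transformation and 145, 151, 92.7, 87.4 and 100 in controls. This probe set differed by 1.06 ± 0.23 (2.08-fold, limma adjusted p = 0.00276) and 1.37 ± 0.24 (2.58-fold, limma adjusted p = 0.000373) from the 2 groups in that order. The remaining tested Aen probe set, 1451186_at, read 117 to 222, 115 to 206 and 121 to 188 in the 3 groups and was not called in any comparison. The last, 1437373_at, was not tested, at 82.1 to 123 in lymphomas against 26.6 to 56.9 before transformation and 35.1 to 65.7 in controls, where 4 of 5 mice of each group were at or below the floor of 53.5.

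Ccng1 (chr11:40748552-40755309), the p53-induced cyclin G1, which brings a phosphatase to Mdm2, was higher in the lymphomas than in control with each of its 3 probe sets. With 1420827_a_at the lymphomas read 593, 1193 and 1790 (lowest, median, highest), against 911, 1013, 817, 659 and 837 before transformation and 830, 855, 642, 582 and 690 in controls. Lymphoma 6 was the lowest tumour with all 3 Ccng1 probe sets, at 593, 577 and 550, and lymphoma 2 the highest, at 1790, 1313 and 1242. The difference from control was 0.69 ± 0.21 with 1420827_a_at (1.61-fold, limma adjusted p = 0.0179; 0.0525 without control 4), 0.80 ± 0.22 with 1450016_at (0.00981) and 0.83 ± 0.19 with 1450017_at (0.00319).
Against mice before transformation the same Ccng1 probe sets differed by 0.45 ± 0.21 (limma adjusted p = 0.113), 0.41 ± 0.18 (0.0861) and 0.52 ± 0.17 (0.0264). The first 2 were called without lymphoma 6 (limma adjusted p = 0.0108 and 0.0158) and with quantile normalization (0.0268 and 0.019). They were also called with the set of mouse numbers as a block (0.0325 and 0.0312). The first was called in mice 1 and 2 alone too (0.0385), and the second without lymphoma 7 (0.0425). The third was lost without before transformation 1 (0.0562), 4 (0.0660) or 5 (0.0527) and within each set of mouse numbers (0.0549 and 0.0963).

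Sesn2 (chr4:132492804-132510456), a sestrin that lowers growth signalling under stress, was higher in lymphomas than in control with 1 of 2 probe sets. Probe set 1425139_at read 164, 262 and 325 (lowest, median, highest) in lymphomas, against 190, 140, 213, 210 and 202 before transformation and 174, 170, 159, 159 and 166 in controls. Lymphoma 1 lay within the control range and the other 7 lay above it. Sesn2 differed by 0.59 ± 0.15 from control (1.51-fold, limma adjusted p = 0.00558), and in mice 1 and 2 alone by 0.08 (limma adjusted p = 0.777). The difference from mice before transformation was 0.40 ± 0.17 (limma adjusted p = 0.0739) and was called without lymphoma 1 (0.0161), with quantile normalization (0.0128) and in mice 3 and up alone (0.0145). The other Sesn2 probe set, 1451599_at, read 67.3 to 118 in lymphomas, 72.5 to 128 before transformation and 79.8 to 118 in controls, with no call.

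Trp53inp1 (chr4:11156441-11174379), a p53-induced nuclear protein that promotes cell death, fell in the lymphomas, as Mdm2 did. With 1416926_at the lymphomas read 1327, 3844 and 4369 (lowest, median, highest), against 6673, 6401, 4970, 6953 and 6902 before transformation and 5551, 5625, 6332, 5881 and 5653 in controls. All tumours were below all other mice. The difference was -0.89 ± 0.23 from mice before transformation (1.85-fold lower, limma adjusted p = 0.00865) and -0.76 ± 0.23 from control (1.70-fold lower, limma adjusted p = 0.0142). Trp53inp1 1416927_at gave -1.08 ± 0.30 (limma adjusted p = 0.0107) and -1.09 ± 0.30 (0.0100), with 292, 1012 and 1451 in lymphomas against 1592 to 2428 before transformation and 1400 to 2606 in controls. Lymphoma 6, at 1327 and 292, was the lowest tumour with both, and without it the Trp53inp1 differences from control were -0.57 and -0.86 and still called. In mice 1 and 2 alone 1416927_at was not called against mice before transformation (limma adjusted p = 0.114). In mice 3 and up alone the Trp53inp1 calls with 1416926_at were lost (limma adjusted p = 0.0564 against mice before transformation and 0.0619 against control).

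Lymphoma 6 was also the lowest tumour for Mdm2 and for Mdm4 1460542_s_at. It had the lowest sums of T-cell markers (11273) and proliferation markers (11202) of the 18 mice and the highest sum over 4 erythroid markers (1590, against 789 to 1054 in the other lymphomas). Cdkn1a was high in it, at 1318. The part of these differences in cell content in the low values of lymphoma 6 was not tested.

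**Figure D4:**
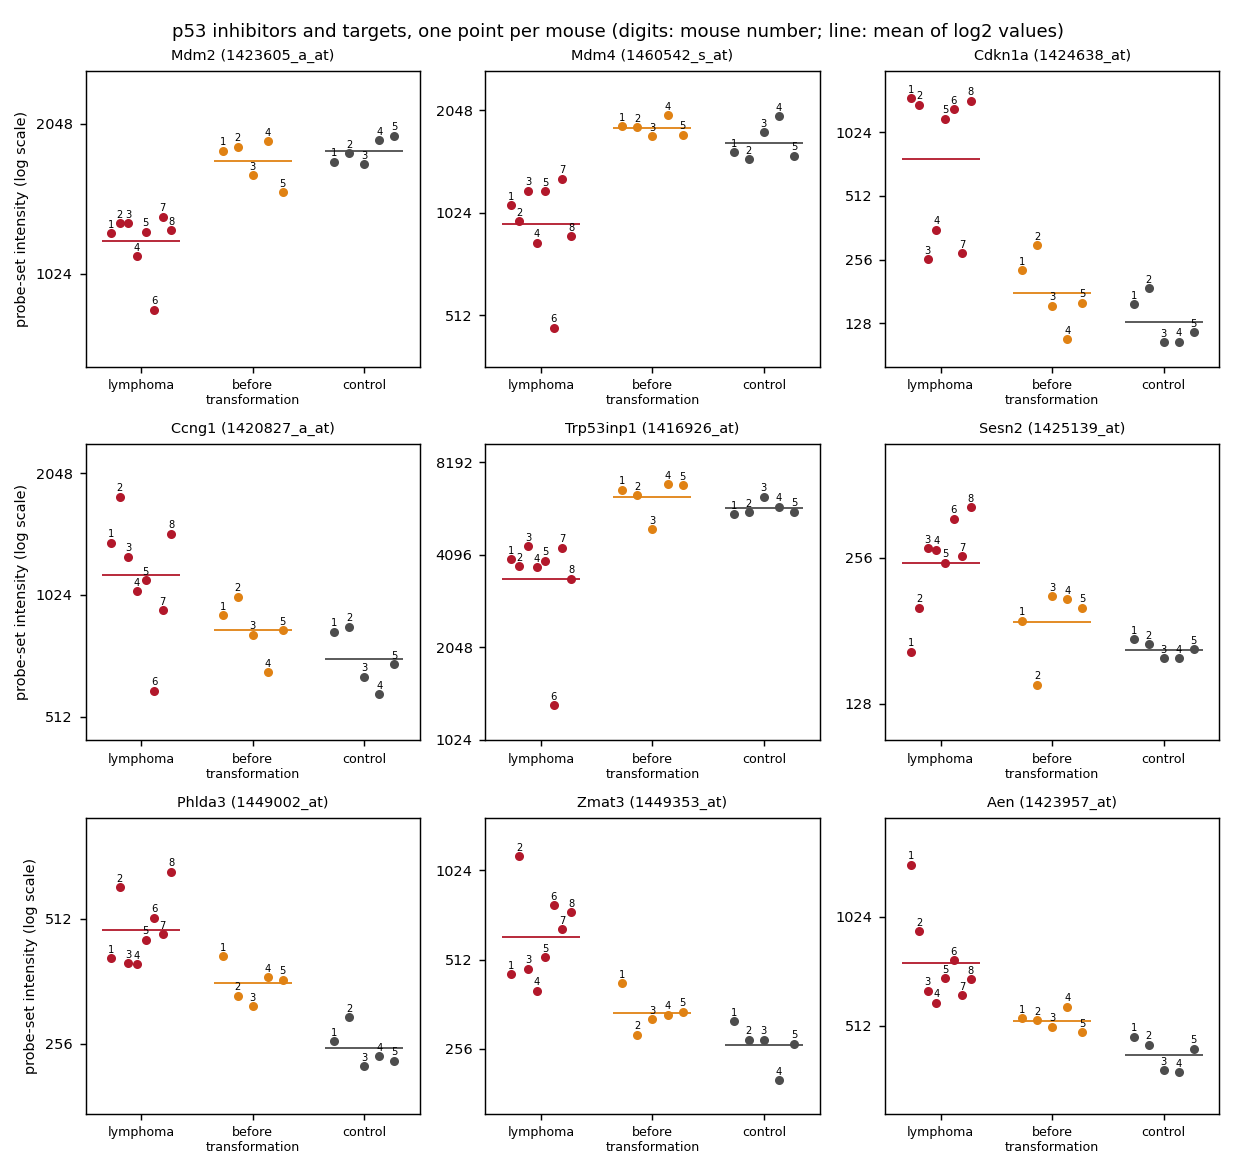
Intensity (log scale) of the highest-mean probe set of each of the 9 measured genes, 1 point per mouse with its number, in lymphomas, mice before transformation and controls, with a line at the mean of the log2 values. Lymphomas lie below all other mice for Mdm2, Mdm4 and Trp53inp1, and above all controls for Cdkn1a, Phlda3, Zmat3 and Aen.

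Before transformation, when beta-catenin was altered but no tumour was present, few of the p53 genes were called against control. In simulated data for this comparison 24 of 67 changes of 0.5 (log2) were recovered, and 58 of 67 changes of 1. Differences of 0.5 or less can therefore be missed. Phlda3 was the 1 gene called, higher by 0.52 ± 0.11 (1.44-fold, limma adjusted p = 0.0104), with all 5 mice above all 5 controls, and it was not called in mice 1 and 2 alone (0.214). For Aen 1423957_at the groups did not overlap either (491 to 577 before transformation against 380 to 477 in controls), with a difference of 0.31 ± 0.09 that missed the threshold (limma adjusted p = 0.0549) and passed it with quantile normalization (0.0297). Groups that do not overlap were seen in these 2 of 20 member probe sets, both higher, where 10.9% of all probe sets did not overlap, 4.61% higher and 6.34% lower. Cdkn1a differed by 0.45 (95% interval -0.14 to 1.04, limma adjusted p = 0.375) and 0.12 (-0.18 to 0.42, 0.704) with its 2 probe sets. Zmat3 differed by 0.36 (0.05 to 0.67, limma adjusted p = 0.146).
For the inhibitors, Mdm2 1423605_a_at differed by -0.07 (95% interval -0.25 to 0.11, limma adjusted p = 0.724) and Mdm4 1460542_s_at by 0.15 (-0.05 to 0.35, 0.382). The other 3 Mdm4 probe sets had wider intervals, of -0.11 to 0.68, -0.30 to 0.76 and -0.37 to 0.47. Trp53inp1 1416926_at differed by 0.13 (-0.07 to 0.33, limma adjusted p = 0.493) and was called without before transformation 3 (0.0369), the lowest mouse of its group. The 3 Ccng1 probe sets differed by 0.24, 0.39 and 0.30 (limma adjusted p = 0.364, 0.298 and 0.252), and the second of them, 1450016_at, was called without controls 1 and 2 (0.73, limma adjusted p = 0.0102) and in mice 3 and up alone (0.64, 0.0321). Both of these runs hold male mice only, and the part of sex was not tested. Of the marker lists, 4 of 6 granulocyte markers and 4 of 7 T-cell markers were lower before transformation than in control. The T-cell marker Zap70 (0.59, limma adjusted p = 0.00112), the myeloid marker Itgam (3.73, 1.53e-06) and the stromal marker Col1a2 (1.32, 0.00183) were higher. Their part in these differences was not tested.

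Of the wider set of p53 targets more fell than rose. Of 32 further targets 24 were tested, each by its probe set of highest mean. Whether each listed gene responds to p53 in mouse thymocytes was not tested. In lymphomas against control 3 were higher and 10 lower, where 40% of all genes were called, 17.3% higher and 22.7% lower. Against mice before transformation 4 were higher and 7 lower, where 34.7% were called, 16.1% higher and 18.5% lower. In mice before transformation 0 were higher and 4 lower against control, where 10.8% were called, 4.47% higher and 6.33% lower. The median differences were -0.22, -0.15 and -0.06, against -0.03, -0.03 and -0.02 for all genes. With quantile normalization the split against control was 6 higher and 10 lower, and with arrays centred on their medians 5 and 9. Plk3, Rprm, Sfn, Pmaip1, Perp and Tnfrsf10b were too dim to be tested, and Fdxr and Bax were not analysed here.

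Ddb2, which recognises ultraviolet damage in DNA, fell at both steps. It read 108, 155 and 228 (lowest, median, highest) in lymphomas, 391, 444 and 540 before transformation and 643, 797 and 863 in controls, with no overlap between any 2 groups. The Ddb2 difference was -2.27 ± 0.18 for lymphomas against control (4.83-fold lower, limma adjusted p = 2.77e-07), -1.48 ± 0.18 against mice before transformation (3.77e-05) and -0.79 ± 0.11 for mice before transformation against control (0.000590). Xpc, its partner in damage recognition, fell against control, with -0.95 ± 0.16 in lymphomas (limma adjusted p = 0.000351) and -0.61 ± 0.11 before transformation (0.00311), and neither Xpc call was made in mice 1 and 2 alone (0.106 and 0.220). Between lymphomas and mice before transformation Xpc differed by -0.34 ± 0.16 (limma adjusted p = 0.120).
Fas, the death receptor, had the largest fall in lymphomas of the 24 tested targets. It read 4.79, 70.9 and 350 in lymphomas, against 564, 784 and 1028 before transformation and 628, 684 and 837 in controls. The Fas differences were -3.05 ± 0.40 from mice before transformation (limma adjusted p = 6.27e-05) and -2.87 ± 0.39 from control (4.89e-05), with 1 tumour at the floor. Before transformation Fas differed from control by 0.18 ± 0.16 (limma adjusted p = 0.598).

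Of the remaining targets, Sesn1, the sestrin related to Sesn2, fell before transformation to 665, 740 and 821 (lowest, median, highest), against 1328, 1485 and 1516 in controls. That Sesn1 difference was -0.96 ± 0.08 (1.95-fold lower, limma adjusted p = 9.79e-06). Gadd45a, a stress gene of growth arrest and repair, fell by 1.11 ± 0.18 in lymphomas against control (limma adjusted p = 0.000234). Btg2, a brake on proliferation, fell by 1.23 ± 0.17 in lymphomas against mice before transformation (limma adjusted p = 8.18e-05). Ddit4, an inhibitor of growth signalling through mTOR, rose by 1.03 ± 0.19 in the same comparison (limma adjusted p = 0.000945). Siva1, a death-receptor partner, fell by 0.57 ± 0.16 before transformation (limma adjusted p = 0.0380), a call lost without any 1 of 7 of the 10 mice (0.0545 to 0.0982). The smallest differences of the list by adjusted p were those of Ei24 before transformation (-0.01, 0.977), Ptprv in lymphomas against mice before transformation (-0.04, 0.837) and Rrm2b in lymphomas against control (0.02, 0.881).

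**Figure D5:**
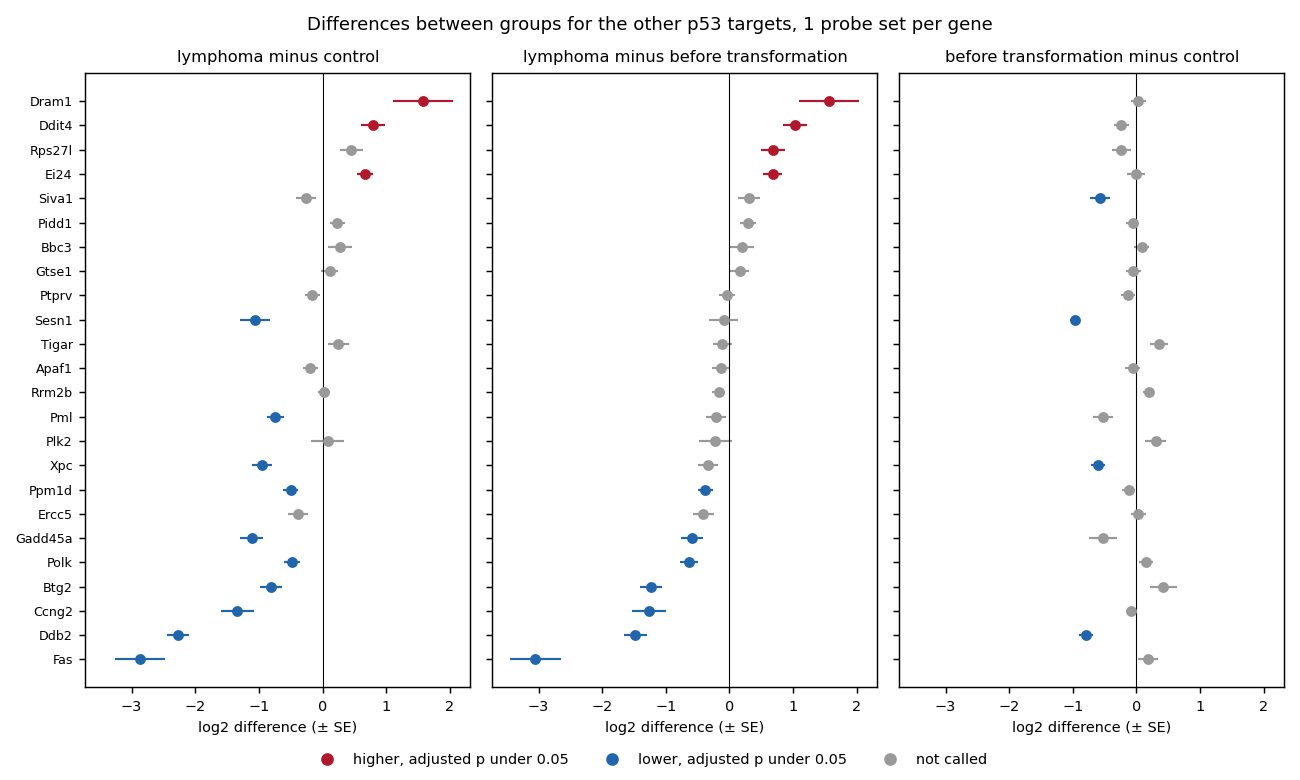
Log2 difference ± SE for the 24 tested further p53 targets (rows, 1 probe set per gene) in the 3 comparisons (panels), coloured by limma adjusted p. Against control 3 genes are higher and 10 lower in lymphomas, from -2.87 for Fas to 1.58 for Dram1. Dram1 read at most 70.6 outside the lymphomas, so it was bright enough to be tested through the lymphomas alone.

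Upstream of p53, 27 of 30 regulators of p53 were tested. Lymphomas against control had 2 higher and 8 lower, lymphomas against mice before transformation 5 and 6, and mice before transformation against control 0 and 4. Called in either direction were 37% of the 27 against 40% of all genes, 40.7% against 34.7% and 14.8% against 10.8% in these 3 comparisons. These shares over both directions lie near the background. Of all genes 17.3%, 16.1% and 4.47% were higher and 22.7%, 18.5% and 6.33% lower in the same order. Their medians were -0.11, 0.03 and -0.09, against -0.03, -0.03 and -0.02 for all genes. With quantile normalization the lymphoma splits became 7 and 8 against control and 8 and 6 against mice before transformation, and with arrays centred on their medians 5 and 8, and 6 and 4. Cdkn2a and Twist1 were too dim to be tested, and Rpl5 was not analysed here.

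Usp7, which removes ubiquitin from Mdm2 and p53, read 1314, 1728 and 2009 (lowest, median, highest) in lymphomas, against 2438, 2801 and 3227 before transformation and 2561, 2763 and 3183 in controls. It thus fell with Mdm2, with -0.75 ± 0.11 against mice before transformation (limma adjusted p = 0.000139) and -0.73 ± 0.10 against control (6.24e-05), and the Usp7 difference from mice before transformation was not called in mice 1 and 2 alone (0.0699). Trim24, a ubiquitin ligase for p53, fell in the same 2 comparisons, with differences of -1.96 ± 0.26 (limma adjusted p = 5.89e-05) and -1.75 ± 0.26 (9.60e-05). Ppp1r13b, which encodes a p53 partner that favours apoptotic targets, fell likewise, with -1.46 ± 0.26 (limma adjusted p = 0.000596) and -2.18 ± 0.20 (1.11e-06). Prmt5, an arginine methyltransferase that modifies p53, rose by 0.89 ± 0.13 against mice before transformation (limma adjusted p = 0.000171). Crebbp, an acetyltransferase and coactivator of p53, fell in lymphomas against control by 1.02 ± 0.09 (limma adjusted p = 1.42e-06).

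Before transformation the regulators that fell were Ube4b, a ubiquitin ligase, with -0.64 ± 0.12 (limma adjusted p = 0.00426), Dyrk2, a kinase of p53, with -0.80 ± 0.16 (0.00621), Crebbp with -0.44 ± 0.09 (0.00685) and the methyltransferase Kmt5a with -0.34 ± 0.09 (0.0344). In mice 1 and 2 alone none of these 4 was called. Kmt5a was also lost in mice 3 and up alone (limma adjusted p = 0.0951) and without any 1 of 7 of the 10 mice (limma adjusted p = 0.0533 to 0.0942). The smallest differences by adjusted p were those of Prmt5 before transformation (-0.02, 0.952), the ubiquitin ligase Rchy1 in lymphomas against mice before transformation (0.00, 0.998) and the damage kinase Atr in lymphomas against control (-0.02, 0.965).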

How the data were processed

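Total RNA of thymocytes or tumours from 18 mice was purified with TRIZOL and RNeasy, labelled with biotin and hybridised to Affymetrix Mouse Expression Array 430, per the labels' protocols. The deposited values are linear intensities that the authors obtained with dChip (design text), whose version, model and scaling were not stated in any source used. Of 811818 values 9775 were blank, and 606 were negative, 605 of them on control 1. Intensities of 45101 probe sets were floored at 53.5 (20th percentile) and blanks set to the floor, and the log2 was taken with the deposited scaling kept. Probe sets above 109 (40th percentile) on 5 or more arrays were tested, 24364 in all, after leaving out 64 controls, 932 with several gene symbols and 9211 with none. limma 3.58.1 (R 4.3.3; lmFit, eBayes with a trend) compared 2 groups at a time, with Benjamini-Hochberg adjustment over all tested probe sets and a threshold of 0.05; it was tested on simulated data. Fold changes are on this floored scale. Lists were counted by each gene's probe set of highest mean. The members and lists were chosen with earlier results of these data known. Named are all members, and per list and comparison up to 4 called genes with the smallest adjusted p and 1 gene with the largest; for Cdkn1a, the 3 genes of highest Pearson r. Dram1 and the genes listed as not tested fall outside this rule and were named after their values were seen. Alternatives changed the floor, blanks, scaling, filter, fit, blocks and mice included.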

Additional observations from a re-analysis of the deposited data

Results flagged for a closer look

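Each tested member probe set was examined in the 3 groups, 60 groups in all, for a mouse standing far from the rest of its group, and 6 had one. Chance gives about 1 in 20. Of the 6, 4 concerned lymphoma 6. It read 868 for Mdm2 1423605_a_at, where the other lymphomas read 1111 to 1333, and 471 for Mdm4 1460542_s_at, where they read 838 to 1291. For Trp53inp1 it read 1327 with 1416926_at, against 3424 to 4369 in the other lymphomas, and 292 with 1416927_at, against 761 to 1451. Before transformation 3 read 4970 for Trp53inp1 1416926_at, where the other mice of its group read 6401 to 6953. Before transformation 2 read 140 for Sesn2 1425139_at, where the others read 190 to 213.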

How the results depend on the processing

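Of 1367 recomputed member differences 1300 stayed on their side of the threshold, 42 lost a call and 25 gained one. No called difference changed sign. Differences of members and of named list genes that were not called changed sign 88 times, in 20 results, none of them called under the alternative. Of 20 member probe sets, 1 was called in mice before transformation against control, and 2 with quantile normalization, with no filter, with the set of mouse numbers as a block, in mice 3 and up alone and without controls 1 and 2, and 0 in mice 1 and 2 alone. Of lymphoma differences from mice before transformation 12 were called, 7 with 1 probe set per gene, and from control 16, 9 with 1 probe set per gene. Leaving out 1 mouse gave 1 to 2, 9 to 14 and 14 to 16 in these 3 comparisons. For the further targets the main counts were 4, 11 and 13, and leaving out 1 mouse gave 3 to 4, 10 to 14 and 13 to 14. The regulator counts were 4, 11 and 10, with 3 to 4, 8 to 12 and 10 to 13; in mice 1 and 2 alone they were 0 before transformation and 6 for lymphomas against mice before transformation. Over all probe sets the counts were 2801, 8825 and 9955, with 2146 to 3020, 7054 to 9334 and 8385 to 10663 when 1 mouse was left out. They became 1479, 4816 and 5619 with 1 probe set per gene, 1593 before transformation with all 3 groups in 1 fit, 1825 without controls 1 and 2, and 5448 for lymphomas against mice before transformation in mice 1 and 2 alone. The split of all calls turned from 3902 higher and 4923 lower to 5415 and 4296 with quantile normalization and 4586 and 3819 with centring for lymphomas against mice before transformation, and from 4125 and 5830 to 5932 and 4786, and 5086 and 4490, against control. Except where fewer probe sets or mice enter, the cause was not tested.

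The groups share mouse numbers, and same-numbered mice deviated together (correlation over 0.1) in 2, 4 and 2 of 5 pairs in the 3 comparisons. The numbers were not taken to pair the mice, though for lymphomas against mice before transformation all 5 correlations were positive (0.08 to 0.387). With the mouse number as a replicate block 1, 12 and 14 member probe sets were called, 4, 11 and 14 targets and 4, 10 and 11 regulators, and 2800, 9263 and 8872 of all probe sets. The block ended the calls of Zmat3 against mice before transformation (limma adjusted p = 0.0630), Phlda3 in the same comparison (0.108), Sesn2 against control (0.0651) and Mdm2 1427718_a_at against control (0.0916), and Ccng1 1420827_a_at and 1450016_at gained one against mice before transformation (0.00189 and 0.00296). Of other calls, Aen 1423957_at against mice before transformation was lost with centring (0.0555) and with no filter (0.0542), and the regulator Dyrk2 before transformation with all 3 groups in 1 fit (0.0892). Mdm4 1419558_at gained a call against mice before transformation with the set of mouse numbers as a block (-0.40, limma adjusted p = 0.0205). Siva1 before transformation was also lost with centring (0.0950), with no filter (0.0815), with all 3 groups in 1 fit (0.0605) and without controls 1 and 2 (0.230), and Kmt5a with centring (0.159) and without controls 1 and 2 (0.220). The planned correlation of Trp53 with its targets over the lymphomas was not run. Probe sets near the floor, such as the untested ones of Mdm2 and Aen, are limited by signal over background.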
